A study of Mus musculus with 11 samples.

Results

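The slow-fibre sarcomere genes described here are 10 genes of the slow (type I) contractile apparatus, taken by symbol: Myh7, Myh7b, Tnnc1, Tnni1, Tnnt1, Myl2, Myl3, Tpm3, Myoz2 and Mybpc1. All 10 were found among the 12128 genes that the soleus and quadriceps tables have in common, and all 10 passed the filter on low values in both muscles. RNA sequencing covered 11 libraries of mouse hindlimb muscle: 3 control and 4 Myc libraries of soleus, and 2 of each kind of quadriceps. Every mouse was 2.5 months old. Mice of the Myc groups were given doxycycline overnight to drive Myc overexpression, and tissue was taken 12 hours after the drug was withdrawn. Controls are described only as age-matched. Their genotype, the strain, the promoter that drives the transgene, and whether controls received doxycycline are not stated in the labels. Neither do the labels say whether a library is 1 animal or a pool, whether the libraries of both muscles came from the same animals, or which portion of the quadriceps was sampled. The text on RNA isolation, which is the same for every library, names soleus alone. Nothing states that libraries of a group came from separate animals, so the p-values below measure the spread between these samples, which may be technical.

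A slow fibre contracts with its own set of sarcomere proteins. In the thick filament the slow beta-myosin heavy chain (Myh7) carries an essential light chain (Myl3) and a regulatory light chain (Myl2), and in the thin filament slow troponins (Tnnc1, Tnni1, Tnnt1) and a slow tropomyosin (Tpm3) make contraction depend on calcium. Most of these proteins have a fast counterpart encoded by another gene. Mouse soleus is a postural muscle rich in slow and IIA fibres, whereas quadriceps is mostly fast, with its slow fibres concentrated in deep portions.

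The values are normalised read counts as deposited, from libraries of 11.09 to 14.85 M estimated reads in soleus and 14.21 to 18.38 M in quadriceps. The Myc gene was read first as a check of the labels. It stood at 30.0, 54.3 and 28.2 in the soleus controls and at 26.3, 31.0, 28.8 and 27.7 in the soleus Myc libraries, and at 114 and 55.7 in the quadriceps controls against 86.4 and 33.6 in the quadriceps Myc libraries. The row did not mark the Myc libraries in either muscle, so they are called Myc-labelled throughout, and each direction rests on the label. The muscle labels went with the contractile genes: Myh7 made up 40.0% to 45.2% of the adult myosin heavy chain values (Myh7, Myh2, Myh1 and Myh4) in soleus controls and 0.868% and 8.70% in quadriceps controls, where Myh4, the IIB heavy chain, led with 91.7% and 76.5%.

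Promoter sequences are shown for 5 of the genes, chosen because they hold the motif matches described next. Any part of these motifs in the values of the libraries was not tested. The stretches are the 250 bases before a RefSeq transcription start (GRCm38.p6), written 5′ to 3′ on the strand of the gene, with capitals on the motif matches. The capitals mark CATTCC, the core of the MCAT element bound by TEAD factors (on either strand, so also as GGAATG), in Myh7 (chr14:54994627-54994876, minus strand), Myl3 (chr9:110763428-110763677, plus strand) and Tnnc1 (chr14:31208062-31208311, plus strand). They mark CACGTG, the E-box bound by Myc and Max, in Myh7b (chr2:155610993-155611242, plus strand). In Myoz2 (chr3:123034988-123035237, minus strand) they mark a form of the MEF2 site: CTA, any 4 bases, then TAG.
Myh7: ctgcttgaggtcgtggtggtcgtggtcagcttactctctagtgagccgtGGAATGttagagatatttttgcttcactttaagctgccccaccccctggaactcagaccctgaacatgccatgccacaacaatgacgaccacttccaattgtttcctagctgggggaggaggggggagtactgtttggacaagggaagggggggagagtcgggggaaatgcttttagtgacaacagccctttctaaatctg
Myl3: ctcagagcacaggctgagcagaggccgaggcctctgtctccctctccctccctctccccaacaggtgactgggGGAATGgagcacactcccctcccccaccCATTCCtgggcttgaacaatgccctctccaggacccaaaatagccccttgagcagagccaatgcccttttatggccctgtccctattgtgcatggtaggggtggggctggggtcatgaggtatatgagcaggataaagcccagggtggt
Tnnc1: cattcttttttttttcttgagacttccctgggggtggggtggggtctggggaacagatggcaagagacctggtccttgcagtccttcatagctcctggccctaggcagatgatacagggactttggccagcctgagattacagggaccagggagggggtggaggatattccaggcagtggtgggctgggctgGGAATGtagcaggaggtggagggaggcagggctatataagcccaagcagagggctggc
Myh7b: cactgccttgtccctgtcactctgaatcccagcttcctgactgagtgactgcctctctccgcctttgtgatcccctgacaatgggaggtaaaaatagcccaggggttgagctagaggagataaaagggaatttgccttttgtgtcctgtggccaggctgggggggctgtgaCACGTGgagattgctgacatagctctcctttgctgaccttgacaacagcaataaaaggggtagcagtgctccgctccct
Myoz2: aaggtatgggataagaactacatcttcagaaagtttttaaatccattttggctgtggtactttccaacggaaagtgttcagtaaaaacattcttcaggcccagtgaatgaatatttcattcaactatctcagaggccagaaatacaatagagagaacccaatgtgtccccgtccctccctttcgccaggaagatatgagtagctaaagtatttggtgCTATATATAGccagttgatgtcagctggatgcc
The search covered both strands of 14 windows for the 10 genes, each running from 250 bases before the start to 50 after it, and the same windows of all genes, 32851 in number. CATTCC was in 3 of the 14 windows, 1 each of 3 genes, and in 14.7% of all windows. Its first base lay at -201 in Myh7, at -177 and -149 in Myl3 and at -58 in Tnnc1, counted from the start. Myh7 has 2 RefSeq starts, and only the window of the upstream start, printed here, holds the match. CACGTG was in 1 of the 14 windows, that of Myh7b at -79, and in 7.15% of all windows. This MEF2 motif was in 1 of the 14 windows, that of Myoz2 at -33, and in 3.69% of all windows. The shorter E-box core CANNTG, which also takes in every CACGTG, was in all 14 windows and in 72.3% of all windows. TATAAA was in 2 of the 14 windows, 1 each of Myl2 and Tnnt1, and in 13.6% of all windows. These matches describe letters in a window and are not measured binding sites.

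The 10 genes differed widely in level. Counted per kilobase of coding sequence, the order in soleus controls was Myl3, Myl2, Tnnc1, Tpm3, Myh7, Tnnt1, Tnni1, Myoz2, Mybpc1 and Myh7b, and it was the same in the Myc-labelled soleus libraries. Myl3 stood at 114939 ± 5196 per kilobase in soleus controls (SD, n = 3). Myh7 stood at 39752 ± 5754, and Myh7b, an ancient myosin heavy chain whose gene also hosts a microRNA, at 276 ± 67.6. Neighbours such as Tnnt1 (34266 ± 2616) and Tnni1 (33143 ± 2400), or Myoz2 (23528 ± 607) and Mybpc1 (21696 ± 331), were close. By library, Tnnt1 stood at 36136, 35385 and 31276 in the soleus controls and Tnni1 at 35194, 33732 and 30502. Differences between genes were not tested. Together the 10 genes made up 3.79% to 4.57% of all values of a soleus library. In quadriceps they made up 0.229% and 1.24% in the controls, and 0.0373% and 0.287% in the Myc-labelled libraries.

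In soleus the slow myosins of the Myc-labelled libraries lay within or around the control values. Myh7 held 241772, 257270 and 193242 normalised reads in the controls and 248011, 207400, 224765 and 266460 in the Myc-labelled libraries. The groups overlapped, and the log2 change (Myc-labelled minus control, on log2(value + 1)) was 0.04 (95% interval -0.20 to 0.29, limma adjusted p = 0.88). Myh7b held 1434, 2057 and 1330 in the controls and 1544, 1384, 1369 and 2324 in the Myc-labelled libraries, again with overlap, and its log2 change was 0.03 (95% interval -0.48 to 0.54, limma adjusted p = 0.95). Both changes were near 0 and took the other sign when single libraries were left out. Myl2, the regulatory light chain, held 47678, 45554 and 40931 in controls and 46383, 38249, 37081 and 46254 in Myc-labelled libraries. Its groups overlapped too, because Myc-labelled replicates 2 and 3 lay below all controls and replicates 1 and 4 did not.

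Myl3, the essential light chain, and Mybpc1, slow myosin-binding protein C, were 2 of the 3 genes with no overlap in soleus. Myl3 held 69893, 67411 and 73723 in the controls and 66279, 58188, 58970 and 65269 in the Myc-labelled libraries. All 4 Myc-labelled values lay below the lowest control, with a log2 change of -0.18 (95% interval -0.37 to 0.01, limma adjusted p = 0.27). Mybpc1 held 73971, 74027 and 72062 in the controls and 62526, 68025, 71124 and 60627 in the Myc-labelled libraries, a log2 change of -0.16 (95% interval -0.36 to 0.03, limma adjusted p = 0.32). Its highest Myc-labelled library, replicate 3, lay just under the lowest control. The third was Myoz2, calsarcin-1, a Z-disc protein that binds calcineurin. Myoz2 held 18139, 18666 and 19098 in the controls and 17503, 16886, 15676 and 16090 in the Myc-labelled libraries, a log2 change of -0.17 (95% interval -0.36 to 0.01, limma adjusted p = 0.27). Of all genes tested in soleus, 8.35% were likewise lower in the Myc-labelled libraries without overlap. None of the 10 was higher without overlap, against 12.7% of all genes. When each library was divided by its total instead, 0 of the 10 genes lacked overlap, against 6.13% of all genes. With TMM scaling the same 3 did, against 7.63%.

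The thin filament genes of soleus showed one pattern by library. Tnnc1, slow troponin C, the calcium sensor, held 26492, 26644 and 23708 in the controls and 26805, 22066, 22012 and 27379 in the Myc-labelled libraries. Tnni1, the inhibitory subunit, held 19744, 18924 and 17112 in the controls and 20901, 15844, 14808 and 19726 in the Myc-labelled libraries. In both, Myc-labelled replicates 2 and 3 lay below every control and replicate 1 above every control. Tnnt1, the tropomyosin-binding subunit, held 28403, 27813 and 24583 in the controls and 28272, 21597, 24524 and 29988 in the Myc-labelled libraries. Tpm3, slow tropomyosin, held 41115, 42187 and 39189 in the controls and 42328, 33640, 37143 and 42986 in the Myc-labelled libraries. Here too replicates 2 and 3 were the lowest, and the groups of all 4 genes overlapped. Their log2 changes were between -0.07 and -0.05, with adjusted p from 0.74 to 0.83 (limma).

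Across the 10 genes in soleus, 0 passed the test at an adjusted p under 0.05 (limma with Benjamini-Hochberg adjustment over 12745 genes), while 9.29% of all genes tested did (7.06% higher and 2.23% lower). At an unadjusted p under 0.05, 0 of the 10 were called, against 12.9% of all genes higher and 8.77% lower. The median log2 change of the 10 genes was -0.07, beside -0.03 for all genes tested. Of the 10 values 8 were below 0, as were 6939 of the 12745 genes tested. The widest interval belonged to Myh7b, and those of the other 9 genes stayed between -0.37 and 0.29 on the log2 scale. No setting tried and no left-out library brought any of the 10 past the threshold in soleus, and in 1 fit over all 11 libraries 0 of the 10 were called lower there, against 1.4% of all genes.

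**Figure D1:**
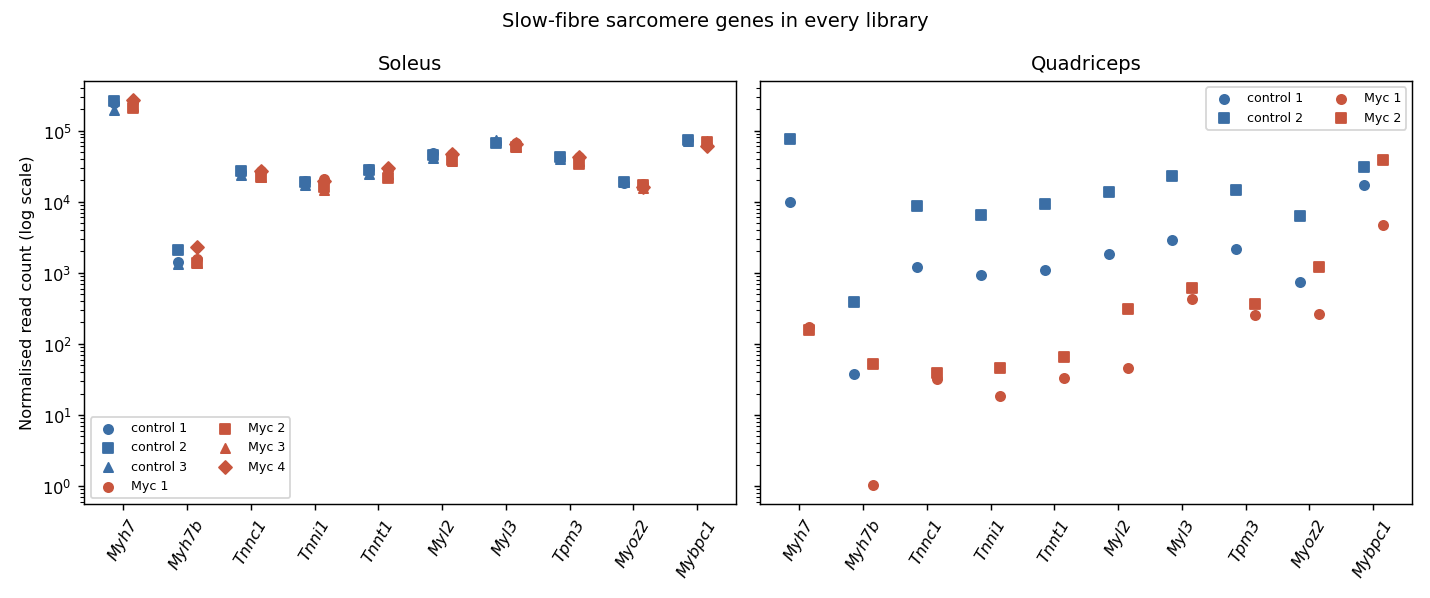
Normalised read count (log axis) of each slow-fibre sarcomere gene in every soleus library (left) and quadriceps library (right), with controls in blue and Myc-labelled libraries in red. In soleus the values of both groups lie close together, and only Myl3, Myoz2 and Mybpc1 have all Myc-labelled values below all controls. In quadriceps Myh7 stands at 9731 and 76136 in the controls and at 174 and 156 in the Myc-labelled libraries, and Mybpc1 overlaps.

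The balance of slow and fast isoforms spanned a wider range among the Myc-labelled soleus libraries than among the controls. For 9 of the genes the slow isoform was expressed as a share of itself plus its fast partner, a quantity that does not depend on library scaling. For Myh7 the fast partners are Myh2, Myh1 and Myh4, the IIA, IIX and IIB heavy chains. The Myh7 share was 45.2%, 44.9% and 40.0% in the controls and 57.6%, 43.7%, 42.1% and 55.5% in the Myc-labelled libraries, that is 43.4% ± 2.92 (SD, n = 3) and 49.7% ± 7.95 (SD, n = 4). The difference of 6.35 percentage points was not beyond the spread (exact permutation test, two-sided, p = 0.3143), and 3 against 4 libraries cannot give a p below 0.0571. Tnni1 as a share of Tnni1 plus Tnni2 was 44.0%, 40.6% and 38.1% in the controls and 54.6%, 42.1%, 35.1% and 51.3% in the Myc-labelled libraries. Tnnt1 as a share of Tnnt1 plus Tnnt3 was 29.1%, 28.4% and 27.3% in the controls and 37.9%, 26.4%, 24.9% and 35.7% in the Myc-labelled libraries.

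Myc-labelled replicates 1 and 4 exceeded every control in all 9 slow shares. Replicate 3 exceeded the controls in 0 of 9 and lay below all of them in 6, and replicate 2 was above in 2, below in 2 and within in 5. The groups therefore overlapped for all 9 shares. In replicates 1 and 4 the fast-fibre genes were low: the summed values of 16 such genes were 497485 and 544902 there, 664550 and 783972 in replicates 2 and 3, and 758820 to 800247 in the controls. Myh7 itself lay within the control range in replicate 1 (248011) and just above it in replicate 4 (266460). Tendon markers (10 genes) summed to 8057, 7053, 2343 and 3719 in Myc-labelled replicates 1 to 4 and to 7899 to 9874 in the controls. Replicates 2, 3 and 4 thus lay below every control in this sum, 3 and 4 by the most, and replicate 1 lay within the control range. The high slow shares belonged to replicates 1 and 4. The part that the make-up of the dissected tissue had in these shares was not tested.

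**Figure D2:**
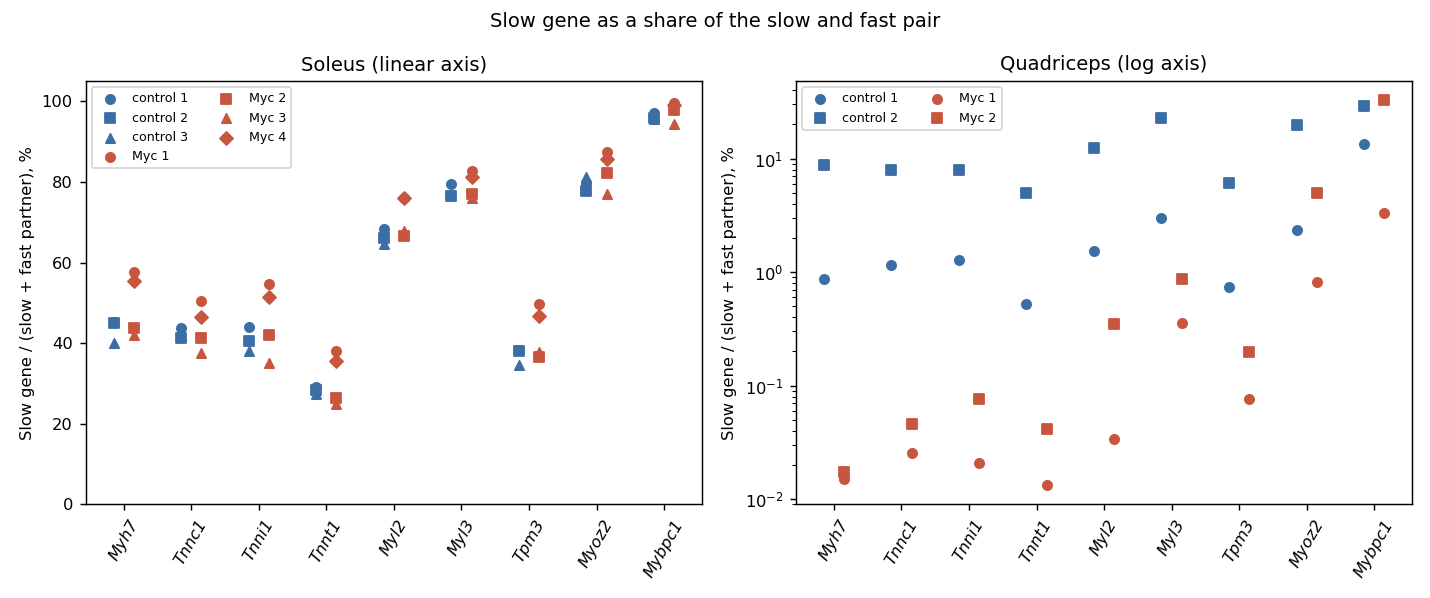
Each slow gene as a percentage of itself plus its fast partner, by library, for soleus (left, linear axis) and quadriceps (right, log axis), with controls in blue and Myc-labelled libraries in red. In soleus, Myc-labelled replicates 1 (circles) and 4 (diamonds) stand above the controls in all 9 pairs, and in quadriceps 7 of 9 pairs have both Myc-labelled libraries below both controls.

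In quadriceps the slow genes stood far lower in the Myc-labelled libraries than in the controls, but the controls differed from each other several-fold and 0 of the 10 passed the test over this muscle alone. Myh7 held 9731 and 76136 normalised reads in the controls and 174 and 156 in the Myc-labelled libraries. The lower control was 56.0 times the higher Myc-labelled library, and the log2 change was -7.36 (95% interval -11.76 to -2.96, limma adjusted p = 0.60). In bulk tissue, fewer slow fibres in a sample and less RNA per slow fibre cannot be told apart, and this touches every quadriceps value below. Myh7b held 37.1 and 386 in the controls and 1.03 and 52.3 in the Myc-labelled libraries. The groups overlapped, the lowest value rests on 1 read, and the log2 change was -3.55 (95% interval -11.04 to 3.95, limma adjusted p = 0.90).

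The slow troponins followed Myh7. Tnnc1 held 1203 and 8658 in the controls and 31.9 and 39.5 in the Myc-labelled libraries, a log2 change of -6.47 (95% interval -10.66 to -2.27, limma adjusted p = 0.62). Tnni1 held 923 and 6412 against 18.5 and 45.4, a log2 change of -6.34 (limma adjusted p = 0.66). Tnnt1 held 1094 and 9405 against 32.9 and 66.1, a log2 change of -6.07 (limma adjusted p = 0.72). None of the 3 overlapped, and the lower control was 16.6 to 30.5 times the higher Myc-labelled library. The smallest of these Myc-labelled values rest on 18 to 67 estimated reads a library.

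The light chains and tropomyosin were also without overlap but stood closer. Myl2 held 1845 and 13674 in the controls and 46.3 and 312 in the Myc-labelled libraries, a log2 change of -5.37 (95% interval -11.74 to 1.003, limma adjusted p = 0.84). Myl3 held 2901 and 23014 against 422 and 607, a log2 change of -4.01 (limma adjusted p = 0.82). Tpm3 held 2155 and 14517 against 257 and 369, a log2 change of -4.18 (limma adjusted p = 0.80). The Tpm3 value is that of the whole gene. Transcripts from its separate RefSeq starts (windows from chr3:90072401 and chr3:90079271) are not told apart in it. In these 3 genes the lower control was 4.78 to 5.92 times the higher Myc-labelled library. Myl2 differed from the other 2 in that its Myc-labelled libraries were themselves 6.74-fold apart.

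Myoz2 and Mybpc1 departed from the pattern. Myoz2 held 735 and 6245 in the controls and 265 and 1212 in the Myc-labelled libraries, and the groups overlapped. Mybpc1 held 17112 and 30923 in the controls and 4745 and 38404 in the Myc-labelled libraries, so that the highest of the 4 values was a Myc-labelled one. The log2 changes were -1.92 for Myoz2 (95% interval -7.98 to 4.15, limma adjusted p = 0.93) and -0.77 for Mybpc1 (95% interval -5.15 to 3.62, limma adjusted p = 0.96). Without Myc-labelled replicate 1, the change of Mybpc1 was 0.74. Per kilobase of coding sequence, Mybpc1 took place 6 among the 10 genes in quadriceps controls and place 1 in the Myc-labelled quadriceps libraries, while Myh7 took places 5 and 9.

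Over the 10 genes in quadriceps, 7 had both Myc-labelled libraries below both controls, against 16.9% of all genes tested. These were Myh7, Tnnc1, Tnni1, Tnnt1, Myl2, Myl3 and Tpm3, and the same 7 did so with library-size scaling (11.6% of all genes) and TMM scaling (16.1%). The test called 0 of the 10 (limma, adjusted over 12270 genes), and it called 0.00815% of all genes, 1 gene in total. At an unadjusted p under 0.05, 5 of the 10 were lower, against 2.24% of all genes, and 0 were higher, against 3.97%. The median log2 change was -4.77, beside -0.03 for all genes. Ordered from the most negative log2 change of the 12270 genes, Myh7, Tnnc1, Tnni1, Tnnt1 and Myl2 took places 1 to 5, Tpm3 was 7, Myl3 was 8, Myh7b was 14, Myoz2 was 66 and Mybpc1 was 613.

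The call depended on which libraries entered the fit. When the spread was estimated in 1 fit over all 11 libraries, 4 genes fell in quadriceps: Myh7 (adjusted p = 0.012), Tnnc1 (0.017), Tnni1 (0.024) and Tnnt1 (0.037), in limma with adjustment over 11971 genes, of which 0.142% were called lower. The soleus libraries, whose spread in these genes was far smaller, enter that estimate. Leaving out quadriceps control 1 gave 4 calls (Myh7, Tnnc1, Myl3 and Tpm3, against 0.057% of all genes) and leaving out control 2 gave 2 (Myh7 and Tnnc1, against 0.0244%), where the lone control is assumed to vary like the other group. Without Myc-labelled replicate 2 the 1 call was Mybpc1 (1.12% of all genes), and without replicate 1 there was no call. With the replicate number as a block the 1 call was Myl2 (0.0326% of all genes). The median log2 change was -6.23 to -3.36 over the 4 omissions.

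**Figure D3:**
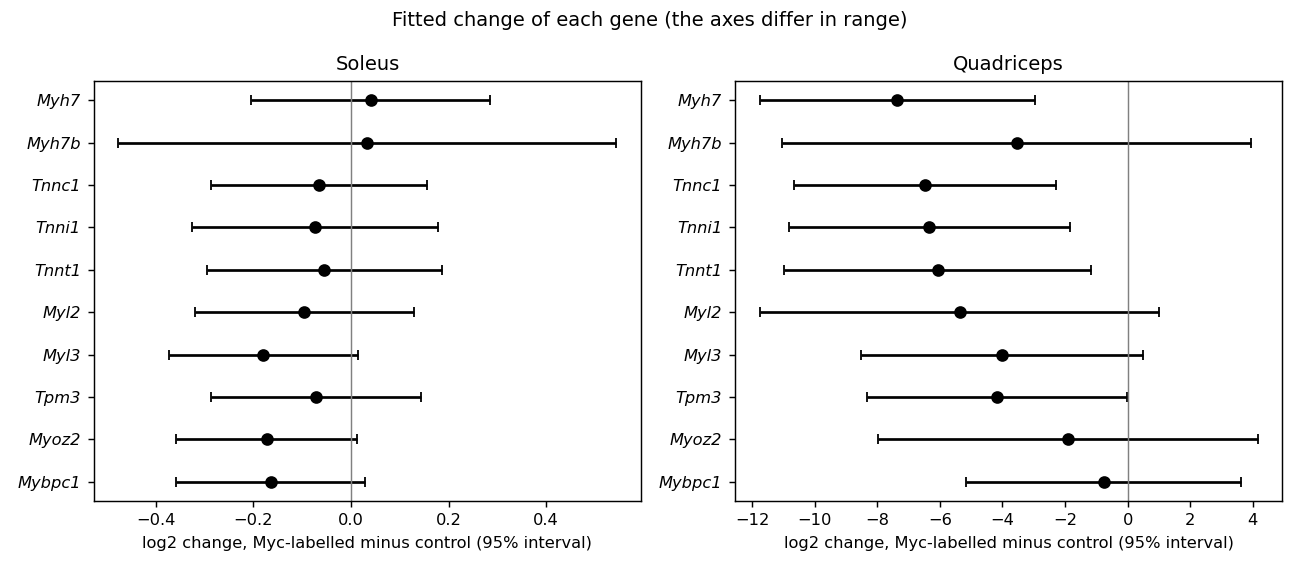
Log2 change (Myc-labelled minus control) of each gene with its 95% limma interval, in soleus (left) and quadriceps (right), drawn on axes of different range. All 10 soleus intervals include 0, and in quadriceps those of Myh7, Tnnc1, Tnni1, Tnnt1 and Tpm3 lie below 0 before adjustment over all genes.

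The spread between the quadriceps controls was shared by nearly the whole set. Control 2 exceeded control 1 by 6.74-fold to 10.4-fold in 9 of the 10 genes, and by 1.81-fold in Mybpc1. A ratio over 5 was found in 123 of 12230 genes (1.01%), and the median of all genes was 0.996. Among the fast heavy chains the ratio was 9.09 for Myh2, 0.774 for Myh1 and 0.651 for Myh4, so Myh2, the IIA chain, went with the slow genes and the IIX and IIB chains did not.

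The Myc-labelled quadriceps libraries differed in another way. Replicate 2 over replicate 1 was 0.895 for Myh7, 1.24 for Tnnc1, 1.44 for both Myl3 and Tpm3, 2.01 for Tnnt1 and 2.45 for Tnni1. The ratio was 4.57 for Myoz2, 6.74 for Myl2 and 8.09 for Mybpc1. For Myh7b no ratio is read, because replicate 1 held 1 estimated read against 53 in replicate 2, which made it the most uneven of the 10 genes by value. Myh2 (7.66) and Myh1 (8.11) were as far apart as Mybpc1, while Myh4 (0.632) was not. Thus Mybpc1 and Myh2 were high in Myc-labelled replicate 2, in which Myh7 was as low as in replicate 1.

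**Figure D4:**
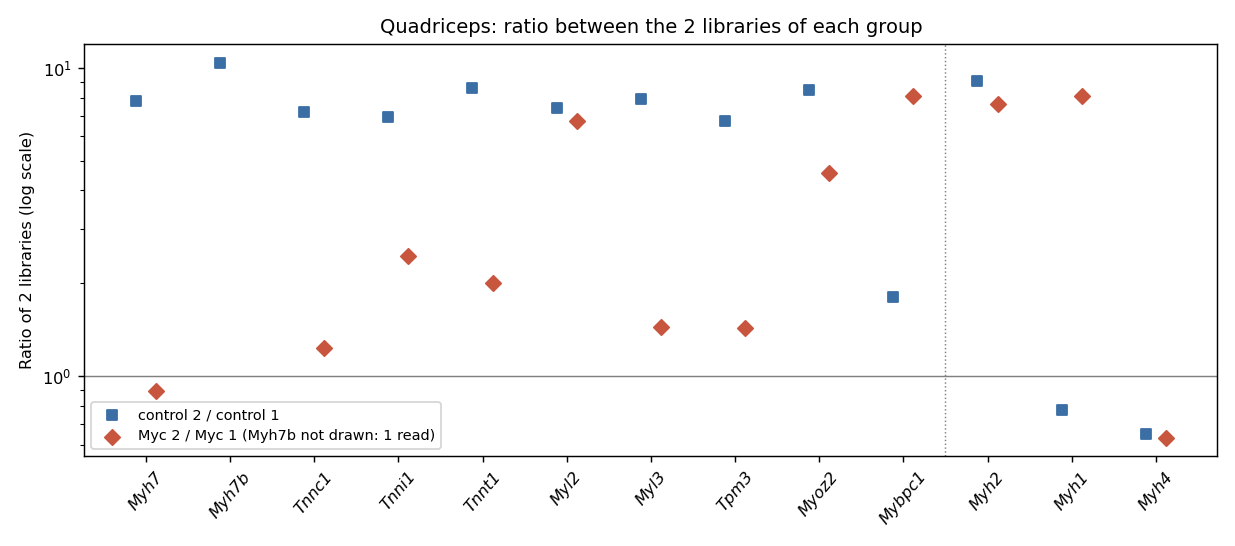
Ratio (log axis) of control 2 to control 1 (blue squares) and of Myc-labelled replicate 2 to replicate 1 (red diamonds) in quadriceps for the slow genes and, right of the dotted line, the fast heavy chains. The control ratio is 6.74 to 10.4 in all but Mybpc1 (1.81), while the Myc-labelled ratio runs from 0.895 for Myh7 to 8.09 for Mybpc1 in the 9 genes drawn (Myh7b, with 1 read in replicate 1, has no diamond).

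As shares of adult myosin heavy chain values, Myh7 was 0.868% and 8.70% in the quadriceps controls and 0.0150% and 0.0172% in the Myc-labelled libraries. Myh4 took 98.0% of Myc-labelled replicate 1, and replicate 2 held 79.3% Myh4, 16.04% Myh1 and 4.66% Myh2. Control 2 held 76.5% Myh4, 6.72% Myh1 and 8.05% Myh2. Myc-labelled replicate 2 and control 2 were thus close in their Myh4 share and far apart in their Myh7 share. With 2 libraries a group the shares were not tested. Of the 9 slow shares, 7 lay below both controls in both Myc-labelled libraries. Replicate 1 lay below in all 9, and replicate 2 lay above both controls for Mybpc1 (32.7% against 13.4% and 29.2%) and between them for Myoz2 (4.98% against 2.34% and 19.6%).

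**Figure D5:**
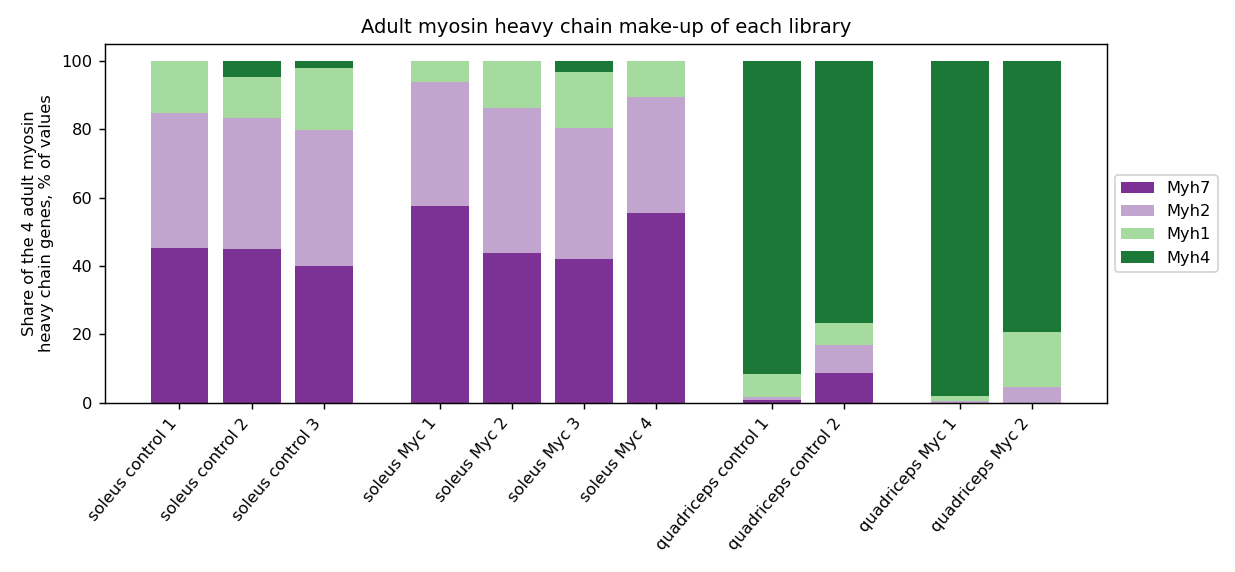
Share of Myh7, Myh2, Myh1 and Myh4 in the summed values of these 4 heavy chain genes, in percent, for each of the 11 libraries. Myh7 takes 40.0% to 57.6% of soleus libraries, 0.868% and 8.70% of the quadriceps controls and 0.0150% and 0.0172% of the Myc-labelled quadriceps libraries, where its band is too thin to see.

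The change in soleus minus the change in quadriceps was positive for all 10 genes, from 0.60 for Mybpc1 to 7.40 for Myh7 on the log2 scale. The value was 6.40 for Tnnc1, 6.26 for Tnni1, 6.02 for Tnnt1, 5.27 for Myl2, 4.11 for Tpm3 and 3.83 for Myl3. The 95% interval was 5.08 to 9.72 for Myh7 and -1.81 to 3.02 for Mybpc1. In 1 fit over all 11 libraries, 0 of the 10 differences passed the test after adjustment over 11971 genes (limma, adjusted p = 0.39 for Myh7, Tnnc1 and Tnni1), and 0% of all genes did. At an unadjusted p under 0.05, 7 of the 10 differed (all but Myh7b, Myoz2 and Mybpc1), against 3.18% of all genes. Without robust moderation of the spread, 4 differences passed: those of Myh7, Tnnc1, Tnni1 and Tnnt1 (0.0334% of all genes). Without quadriceps control 1 (0.142% of all genes) or control 2 (0.0668%) 6 passed, the same 4 with Myl3 and Tpm3, and without quadriceps Myc-labelled replicate 2 only Mybpc1 did (0.0501%). With a replicate block Myl2 and Myoz2 passed (0.167%). The tables were normalised separately and animals may be shared between muscles, which this fit treats as independent.

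Several of the genes also varied together within soleus, whereas Myoz2 and Mybpc1 did not go with the rest. Over the 7 soleus libraries, each gene was compared with the mean log2 level of the other 9: the Pearson correlation was 0.98 for Tnnc1, 0.93 for Myl2 and Tpm3, 0.91 for Tnnt1, 0.86 for Tnni1 and 0.73 for Myh7. It was 0.58 for Myh7b, 0.53 for Myl3, 0.25 for Myoz2 and -0.28 for Mybpc1. Over all 11 libraries, with each muscle centred, it was at least 0.86 in 9 genes and 0.56 in Mybpc1, and there the quadriceps libraries carry most of the range. These points share library and scaling, and they describe the libraries only. By the same measure, the gene outside the set most like the mean of the 10 over 11 libraries was Atp2a2 (0.99), which encodes the slow and cardiac calcium pump of the sarcoplasmic reticulum. It was followed by Nlrc3 (0.98), Lgi1 (0.97), Rp1 and Rab15 (0.96 each), and Prox1 (0.95), a transcription factor, took place 7. In the Myc-labelled quadriceps libraries Nlrc3 stood at 8.23 and 10.9, Lgi1 at 0 and 8.88, Rp1 at 0 and 6.91 and Rab15 at 3.09 and 28.6. The correlations of Nlrc3, Lgi1, Rp1 and Rab15 therefore rest in part on few reads. Over the 7 soleus libraries alone the leading genes were Frg1 and Inpp1 (0.97 each) and Nktr and Zbtb33 (0.96 each).

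Other slow-fibre genes, of calcium handling, the Z-disc and signalling, were read from a list of their own. The first values are those of quadriceps. Of 14 such genes, 0 rose and 0 fell, where 0.00815% of all genes passed. All 14 log2 changes were below 0, as were 6647 of the 12270 genes tested. Their median was -1.54, beside -0.03 for all genes. Atp2a2 held 5989 and 36717 in the quadriceps controls and 812 and 1249 in the Myc-labelled libraries, a log2 change of -3.88 (limma adjusted p = 0.80). Sln, sarcolipin, an inhibitor of the calcium pump, held 90.5 and 636 against 20.6 and 10.9, a log2 change of -3.92 (limma adjusted p = 0.65). Casq2, the slow and cardiac calsequestrin, overlapped (449 and 2127 against 190 and 629). In soleus 0 of the 14 rose, against 7.06% of all genes, and the median log2 change was -0.10.

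The fast partners served as the other side of the balance. Of 16 fast-fibre genes in soleus 3 fell and 0 rose, where 2.23% of all genes fell and 7.06% rose. The median log2 change was -0.44, beside -0.03 for all genes. All 16 values were below 0, as were 6939 of the 12745 genes tested. Mylpf, the fast regulatory light chain, held 22009, 23408 and 22415 in the controls and 14552, 19184, 17581 and 14579 in the Myc-labelled libraries, a log2 change of -0.47 (limma adjusted p = 0.010). Tpm1, fast alpha-tropomyosin, fell by 0.41 on the log2 scale (limma adjusted p = 0.035), and Myoz3, a calsarcin of fast fibres, fell by 0.95 (limma adjusted p = 0.022). The call was lost in 2 of 18 alternatives for Mylpf, 7 for Tpm1 and 3 for Myoz3, and adjusted p over them reached 0.072, 0.23 and 0.105. Without soleus control 2 none of the 3 was called. Myh4 was uneven among soleus libraries, at 664, 26824 and 10303 in the controls and 318, 589, 17469 and 243 in the Myc-labelled libraries. In quadriceps 0 of the 16 fast genes passed, against 0.00815% of all genes, and their median was 0.03.

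Sarcomere genes common to all fibres and regulators of fibre type were read from lists of 15 and 25 genes. In soleus 2 of the 15 fell, against 2.23% of all genes, with a median of -0.17. They were Myot, myotilin of the Z-disc (log2 change -0.29, limma adjusted p = 0.048), and Tmod4, a cap of thin filament ends (-0.36, limma adjusted p = 0.025). The calls were lost in 11 and 5 of 18 alternatives. In quadriceps 0 of the 15 passed, with a median of -0.24. Of the 25 regulators 0 passed in soleus (median -0.16) and 0 in quadriceps (median -0.18), against 9.29% and 0.00815% of all genes. Sox6, a repressor of slow genes, had a log2 change of -0.46 in soleus and -0.18 in quadriceps, and Ppargc1a, a coactivator of the oxidative programme, -0.20 and -0.22. Prox1 held 59.2 and 176 in the quadriceps controls and 18.5 and 29.6 in the Myc-labelled libraries (log2 change -2.08, limma adjusted p = 0.54), the same order as most of the slow sarcomere genes. Of 5 tested developmental genes, led by embryonic myosin Myh3, 0 passed in either muscle.

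Markers of other tissues were read beside these values. Several of the slow genes, Myh7, Myl2, Myl3 and Tnnc1 among them, are also genes of the heart. Of 8 cardiac markers 3 were listed, and they summed to 515 and 1368 in the quadriceps controls and 308 and 429 in the Myc-labelled libraries. Sbk2 was lower there without overlap, at 482 and 1248 against 301 and 322 (log2 change -1.31, limma adjusted p = 0.81). Tnnt2, cardiac troponin T, overlapped (11.6 and 39.9 against 5.14 and 27.6). Myh6, the alpha heavy chain, stood at 22.2 and 80.3 in the quadriceps controls and 1.03 and 79.3 in the Myc-labelled libraries, so it did not follow Myh7 in replicate 2. In soleus Sbk2, named above, fell by 1.05 on the log2 scale (limma adjusted p = 0.015, lost in 3 of 18 alternatives), and no gene of the 10 other marker lists passed the test in either muscle. Tendon markers summed to 4090 and 1536 in the quadriceps controls and 282 and 3739 in the Myc-labelled libraries (Chad was listed at 0 in replicate 1), and fibroblast markers (7 genes) to 11183 and 14331 against 8566 and 15972. In neither list did the order of libraries match that of Myh7. Macrophage markers (8 genes) summed to 820 and 1801 against 516 and 1368, higher in replicate 2 of both groups. Endothelial markers (7 genes) stood at 3223 and 3308 against 2403 and 3539, Schwann markers (5 of 8 listed) at 754 and 843 against 603 and 1192, and adipocyte markers (8 genes) at 13014 and 14274 against 13088 and 8340. The adipocyte sum was mostly Plin4 (control mean 9368) and hid larger ratios of other markers. Control 2 over control 1 was 4.19 for Adipoq, 3.51 for Plin1, 4.52 for Cidec and 5.38 for Cfd, but 0.724 for Plin4. Myc-labelled replicate 2 over replicate 1 was 0.255, 0.320, 0.602, 0.372 and 0.670 for these genes in turn. The part of any of these markers in the slow-gene values was not tested. Reads of near-identical paralogs (Myh7 with Myh6, the fast heavy chains with each other, the tropomyosins with each other) may be split between genes, so these values carry that uncertainty.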

How the data were processed

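RNA sequencing gave 1 value per gene for 7 soleus and 4 quadriceps libraries, grouped by title. The authors deposited a normalised signal: read from the values, estimated reads divided by 1 size factor per library, with 91.06% to 93.49% of values under 300 being whole multiples of 1 read within 0.02. Per the submitters' processing notes, STAR 2.7.8a, Partek and DESeq2 were used, and mm10 and mm39 are both named with no role, so promoter coordinates come from RefSeq on GRCm38.p6 only. Because the values are not whole counts, the main test was not a count test. Changes were tested with limma 3.58.1 (R 4.3.3, statmod 1.5.0) on log2(value + 1), with trend and robust moderation, for genes reaching 10 in 3 libraries of soleus or 2 of quadriceps. Fold changes of low genes are therefore understated. Each muscle had its own fit, and the muscles' changes were compared over all 11 libraries. A gene passed at an adjusted p under 0.05 (Benjamini-Hochberg over all genes tested). The scripts were tested on simulated data. Levels per kilobase use the longest coding sequence of GENCODE M21. The 10 genes and all lists were chosen with earlier results of these data known. Genes named are the 10, their fast partners, Myc, genes picked by correlation, genes that passed the test, and up to 4 leading entries of each list. Chad and Plin4 are named besides, for their values. Promoter windows were found for all 10 genes. Alternatives were other scalings, limma-voom, pseudocounts, filters, no robust moderation, 1 joint fit, a replicate block and leaving out libraries. The soleus result of 1 listed gene is not reported here.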

Additional observations from a re-analysis of the deposited data

How the results depend on the processing

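In soleus the count of 0 genes called held under every setting run, with medians of -0.13 to -0.02 over the left-out libraries. The near-zero changes of single soleus genes changed sign in places. Over left-out libraries the log2 change of Myh7 was -0.082 (without control 3) to 0.12, below 0 also without Myc-labelled replicate 4 (-0.019), and -0.014 without replicates 3 and 4 together, an omission chosen after seeing the data. That of Myh7b was -0.14 (without Myc-labelled replicate 4) to 0.23, below 0 also without control 1 (-0.035) and control 3 (-0.089), and -0.11 without replicates 3 and 4 together. Tnnt1 was -0.13 to 0.033 (without Myc-labelled replicate 2), and Tnni1 -0.16 to 0.010 (without replicate 3). In quadriceps, where 0 genes were called, the joint fit over 11 libraries called 4, and leaving out 1 library gave 0 to 4; the change of Mybpc1 was -2.28 without Myc-labelled replicate 2 and 0.74 without replicate 1. For the difference between muscles, against 0, the fit without robust moderation called 4 and leaving out 1 library gave 0 to 6, with Mybpc1 at -0.90 without quadriceps Myc-labelled replicate 1 and 2.11 without replicate 2. The cause of these shifts was not tested. The Myh7 share differed by 3.72 to 8.88 percentage points in soleus over left-out libraries and by -8.69 to -0.85 in quadriceps.

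Titles number the libraries, and a replicate block was fitted as an alternative. Same-numbered soleus libraries correlated by 0.0010, 0.076 and 0.14 in their deviations from the group means, and differently numbered ones by -0.20 to 0.21. With so few libraries this cannot show whether a shared number means a shared animal or batch. In quadriceps, with 2 libraries a group, all correlations are by construction 1 value with either sign (0.14 for the same number, -0.14 otherwise), so they cannot show it either. With the block, quadriceps had 1 gene called (Myl2, at the same change of -5.37; 0.0326% of all genes) and the difference between muscles 2 (Myl2 and Myoz2; 0.167%). In soleus 0 were called, and Myh7 was -0.019 and Myh7b -0.14, because Myc-labelled replicate 4 has no partner and drops out of the estimate. The edgeR alternative was not run, since too few values were whole reads. With 2 libraries a group, quadriceps intervals span several log2 units, and Myc-labelled values of the slow troponins rest on few reads.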
